A study of Heterocephalus glaber and Mus musculus with 6 samples.

Results

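The DNA sensor gene Cgas and the interferon regulatory factor (Irf) genes were read in keratinocytes of the mouse epidermis. They were taken as every row of the mouse count tables with a mouse Ensembl gene identifier whose GENCODE vM21 symbol is Cgas or Irf followed by a single digit. Of these 10 genes, 3 had a row, Cgas, Irf4 and Irf9, among 54364 entries in each mouse table. The other genes, among them Irf1, Irf2, Irf3, Irf5, Irf7 and Irf8, had no row of their own in the tables used here and have no values below. The 3 mouse libraries came from dorsal skin of FVB mice aged 7 to 8 weeks; the epidermis was taken off the dermis, and its cells were sorted by FACS for CD49f, the integrin that anchors basal keratinocytes to the basement membrane. The libraries, numbered 1 to 3 as in their titles, form a single group with no treatment, so values are compared between libraries and between genes, and no test between conditions was possible. The naked mole-rat tables of the same series pair no identifier with these symbols and were not used.

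cGAS is an enzyme that binds double-stranded DNA in the cytosol, as after viral infection or leakage from a damaged nucleus, and makes the cyclic dinucleotide cGAMP. cGAMP binds STING, which recruits the kinase TBK1, which in turn activates IRF3 and leads to transcription of type I interferon. Secreted interferon acts through its receptor on JAK kinases and STAT factors, among them STAT2, which joins IRF9 in the complex ISGF3 and switches on interferon-induced genes. Other members of the IRF family have cell-type roles: IRF4 and IRF8 act in lymphoid and myeloid cells, and IRF4 also in pigment cells.

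Mouse libraries 1, 2 and 3 held 52499080, 53465434 and 52970733 counts, of which rows with an Ensembl identifier took 11.4%, 11.5% and 10.6%. The remaining counts lie in assembled loci without gene names. Of 21951 protein-coding genes in the annotation 14605 (66.5%) had a row, and 3 of the 10 genes considered here were among them. Each value below belongs to the gene's own row, and reads given to an assembled locus over the same gene are not in it, so a low value or a 0 describes that row alone. Libraries 2 and 3 had 0 counts of the Y-linked helicase gene Ddx3y and library 1 had 3483, so library 1 differs in its animals from libraries 2 and 3. These counts do not tell whether libraries 2 and 3 share animals. The labels do not state whether each library is a separate animal. Of 12 basal keratinocyte markers only the integrin gene Itga2 had a row, and of 14 suprabasal markers only Tgm3 and Dsc2, so the identity of the sorted cells could not be checked with them.

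Irf9 (ENSMUSG00000002325) lies on the plus strand of chromosome 14 from 55603571 to 55610030, Irf4 (ENSMUSG00000021356) on the plus strand of chromosome 13 from 30749226 to 30766976, and Cgas (ENSMUSG00000032344) on the minus strand of chromosome 9 from 78430526 to 78443237 (GRCm38, the mm10 assembly). IRF genes are paralogs with a conserved DNA-binding domain at the start of the protein, so the coding sequences of the 2 that had a row were set against each other to see whether reads could be shared. The longest identical run was 15 bases, and it is printed in capitals below with up to 30 bases to each side, from the GENCODE vM21 transcripts. The first base shown is coding base 181 of Irf4 and coding base 343 of Irf9, counted from the start codon of the longest complete coding sequence.
Irf4: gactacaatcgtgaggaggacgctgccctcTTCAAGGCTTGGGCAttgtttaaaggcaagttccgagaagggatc
Irf9: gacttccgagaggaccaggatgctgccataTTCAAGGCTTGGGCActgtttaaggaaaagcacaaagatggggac
Over the 75 bases shown, 52 positions were identical (69.3%), and the run starts at the first base of a codon in both.

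No 31-base word of the Irf4, Irf9 or Cgas transcripts occurred in a transcript of another gene of the 10. For Irf4, 0 of 4900 such words occurred in any other annotated gene, and no other gene overlaps it. Irf9 shared 266 of 5517 words (4.82%) with other genes, 93 of them with Rnf31, which ends on the same strand inside the first part of Irf9 and shares 123 exonic bases with it. Rnf31, a subunit of a ubiquitin ligase, had 35.9, 36.0 and 35.7 CPM (counts per 1000000 counts over all rows of a library) in libraries 1, 2 and 3, so this neighbour's level was nearly equal in the 3 libraries. Cgas shared 282 of 4150 words (6.80%), 172 of them with the pseudogene Gm8093, which overlaps 201 exonic bases on the opposite strand. That pseudogene had 2, 5 and 0 counts. Words shared with Irf9 occurred in 1715 other genes and words shared with Cgas in 1308. Apart from Rnf31 and Gm8093, the levels of those genes were not compared here.

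Irf9, the DNA-binding subunit of ISGF3, was the highest of the 3 genes, in CPM and per length. It had 1913, 2620 and 2837 counts in libraries 1, 2 and 3, or 36.4, 49.0 and 53.6 CPM, with a mean of 46.3 ± 8.87 CPM (SD, n = 3). Exact Poisson 95% intervals, which cover counting error only, ran from 34.8 to 38.1 CPM in library 1, from 47.1 to 50.9 in library 2 and from 51.6 to 55.6 in library 3. Library 1 was low and the other libraries were high, with no overlap of the intervals. The highest library was 1.47 times the lowest. With library 1 left out the mean was 51.3 CPM.

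Cgas, the sensor itself, had 759, 960 and 764 counts, or 14.5, 18.0 and 14.4 CPM, with a mean of 15.6 ± 2.03 CPM (SD, n = 3). Library 2 was high, with an interval of 16.8 to 19.1 CPM. Libraries 1 and 3 were nearly equal, with intervals of 13.4 to 15.5 CPM in each, so their order could not be told from counting error; it turned round with TMM factors, which gave 14.3 CPM in library 1 and 14.9 in library 3. The highest library was 1.24 times the lowest.

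Irf4, best known as a factor of lymphocytes and plasma cells, had 491, 779 and 619 counts, or 9.35, 14.6 and 11.7 CPM, with a mean of 11.9 ± 2.61 CPM (SD, n = 3). Library 1 was low, library 2 high and library 3 between them, with intervals of 8.54 to 10.2, 13.6 to 15.6 and 10.8 to 12.6 CPM that did not overlap. The highest library was 1.56 times the lowest. With library 1 left out the mean was 13.1 CPM.

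**Figure D1:**
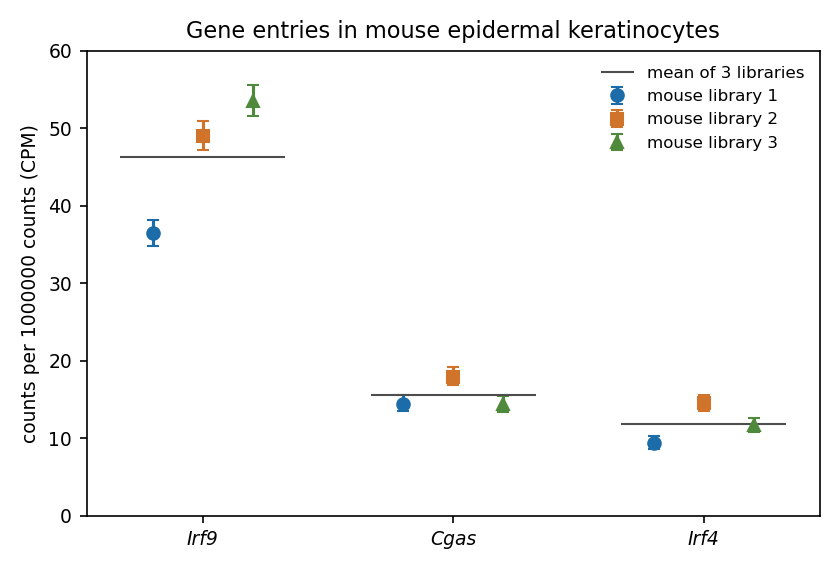
Level of Irf9, Cgas and Irf4 in counts per 1000000 counts (CPM) in mouse libraries 1, 2 and 3; points are libraries, bars exact Poisson 95% intervals (counting error only) and horizontal lines the mean of the 3 libraries. Irf9 lies between 36.4 and 53.6 CPM, above Cgas (14.4 to 18.0) and Irf4 (9.35 to 14.6) in each library.

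Irf4 is also used by leukocytes and pigment cells, so their markers were read in the same libraries. Of 9 leukocyte markers 7 had a row, and their summed level was 1.90, 4.17 and 3.40 CPM in libraries 1, 2 and 3, against 9.35, 14.6 and 11.7 CPM for Irf4 alone. Both were low in library 1 and high in library 2, and the part of leukocytes in the Irf4 values was not tested. In bulk RNA, fewer cells of a type and less RNA per cell cannot be told apart. Ptprc, the pan-leukocyte antigen, had 24, 41 and 48 counts, Laptm5 6, 18 and 17, and Cd53 0. Lcp1, an actin-bundling protein of leukocytes, had 46, 111 and 92 counts and Vav1 24, 25 and 23. Of 6 B and plasma cell markers 5 had a row; Ms4a1 and Cd79b were at 0 in each library, and the list summed to 11, 12 and 0 counts. Of 12 T cell markers 9 had a row and summed to 4.91, 6.08 and 5.89 CPM, most of it in the receptor constant region Trbc1, with 183, 225 and 183 counts, while Cd7 had 21, 31 and 33, Cd3g 6, 29 and 37 and the constant region Trdc 28, 18 and 23, and Trac and Gzma were at 0. The 10 Langerhans and myeloid markers with a row, out of 18, summed to 6.02, 7.87 and 7.10 CPM. Cd83, an activation marker that is not limited to these cells, gave 3.41, 5.48 and 2.36 CPM of that sum. Cd207, Cd74, H2-Aa, H2-Ab1, Csf1r and Epcam had no row, so the level of these cells could not be read from the sum. Itgam, an integrin of myeloid cells, had 78, 48 and 105 counts, Ly75, a receptor of dendritic cells, 27, 40 and 33, and Lyz2, lysozyme, 0, 0 and 59. Of 6 pigment cell markers, Tyr and Mlana were at 0 and Dct, a pigment enzyme, had 15, 13 and 17 counts. Mitf, which regulates pigment genes and is expressed more widely, had 9.66, 9.56 and 7.65 CPM, which in library 1 was above Irf4 (9.35).

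Set per length, the 3 genes kept the order Irf9, Cgas, Irf4 in each library. Irf9 had 6.77, 9.10 and 9.94 CPM per kilobase of annotated exon (mean 8.60 ± 1.65, SD, n = 3), Cgas 3.50, 4.35 and 3.50 (mean 3.78 ± 0.492) and Irf4 1.91, 2.97 and 2.38 (mean 2.42 ± 0.533). No library of a gene in that order reached into the range of the next. Mean CPM per kilobase was ranked among the 6595 protein-coding genes with a row and a mean of at least 10 counts. Irf9 stood at percentile 96.0, Cgas at percentile 68.2 and Irf4 at percentile 54.0. The 7346 protein-coding genes without a row, among them Krt5, Krt14 and B2m, were not ranked. The percentiles are therefore not ranks among all expressed genes. Irf9 is annotated with 7 transcripts, some of them with retained introns, and 5386 exonic bases; over the 2959 bases of its longest coding transcript it came to 15.7 CPM per kilobase, while Cgas (3.86) and Irf4 (2.49) hardly moved.

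Within a library the ratio of 2 counts does not depend on the scaling. Counts of Irf9 over Cgas were 2.52 in library 1 (Clopper-Pearson 95% interval 2.32 to 2.75), 2.73 in library 2 (2.53 to 2.94) and 3.71 in library 3 (3.43 to 4.03). Library 3 had the highest ratio; the intervals cover counting error only, and with a single library each they do not show how much the ratio varies between preparations. The ratio of Irf9 to Irf4 was 3.90 (3.53 to 4.31), 3.36 (3.10 to 3.65) and 4.58 (4.20 to 5.01) in libraries 1, 2 and 3. Cgas over Irf4 was 1.55 (1.38 to 1.74), 1.23 (1.12 to 1.36) and 1.23 (1.11 to 1.37), so in libraries 2 and 3 this pair had nearly the same ratio.

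The coefficient of variation was 22.0% for Irf4, 19.1% for Irf9 and 13.0% for Cgas, where their mean counts would give 3.99%, 2.02% and 3.48% from counting. Separate libraries usually differ by more than counting error, and the median over the 9965 named entries averaging 10 counts or more was 16.5%. Among these Irf4 stood at percentile 60.8, Irf9 at 55.6 and Cgas at 41.0. Among the 6710 that averaged 50 counts or more, which leaves out the noisier low counts, the median was 11.5% and the percentiles were 78.5 for Irf4, 73.3 for Irf9 and 56.0 for Cgas, so Cgas lay on the other side of the median. None of the 3 reached a 2-fold range between libraries, which 7.59% of those 6710 entries did. The spread of Irf9 rested on library 1: without it the coefficient of variation was 6.28%. That of Cgas rested on library 2: without it the value was 0.168%.

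**Figure D2:**
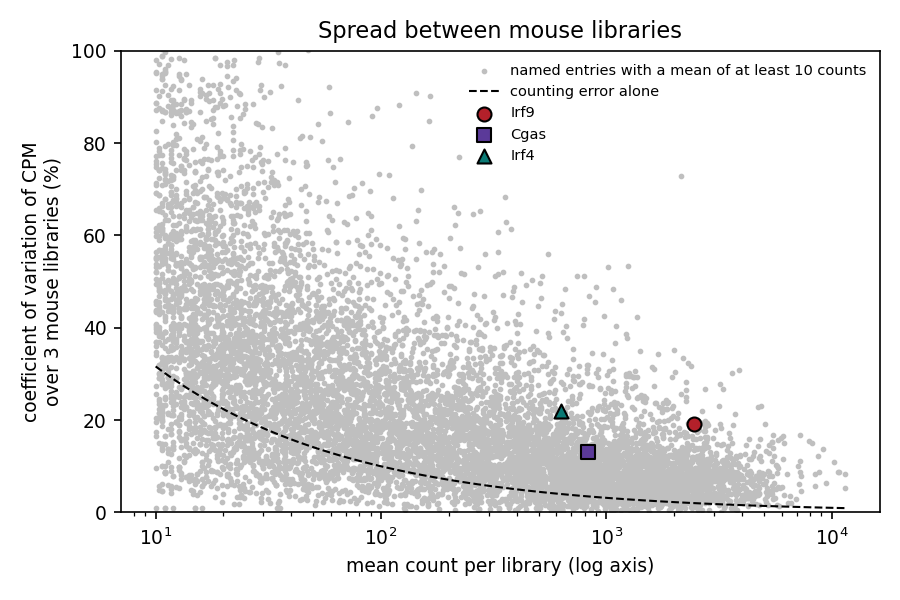
Coefficient of variation of CPM over the 3 mouse libraries (percent) against the mean count per library on a log axis; grey points are named entries averaging 10 counts or more (76 of them lie above the 100% top of the axis), and the dashed line is counting error alone. Irf4 (22.0%), Irf9 (19.1%) and Cgas (13.0%) lie above the dashed line.

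Irf9 and Irf4 were lower in library 1 than in both others, 2 of the 3 genes, where 29.9% of the 9965 named entries averaging 10 counts or more were. Library 2 held the highest value of Cgas and of Irf4, as it did for 37.6% of those entries. With each of the other scalings (Ensembl rows only, TMM and size factors) Cgas too was lowest in library 1, where the background was 33.1% to 35.5%. With 3 genes these shares cannot be set apart from the background. On the log2 scale, after 0.5 was added to each count, the deviation of library 1 from the mean of the other libraries was −0.49 for Irf9, −0.48 for Irf4 and −0.15 for Cgas, against a median of 0.05 over the 9965 entries.

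Downstream of cGAS, the kinase gene Tbk1 had a row and the adaptor gene Tmem173, which encodes STING, had counts of 0 in each library. A count of 0 allows up to 3 counts, or 0.0571, 0.0561 and 0.0566 CPM in libraries 1, 2 and 3, in that row. Tbk1 had 42.2, 47.1 and 42.3 CPM, or 10.8, 12.0 and 10.8 per kilobase, and was slightly higher in library 2, as Cgas was. Trim56, a ubiquitin ligase that acts on cGAS and STING, had 57.1, 70.7 and 54.2 CPM and was also high in library 2. Of 40 annotated genes in the list of cytosolic DNA sensing, 28 had a row and 16 a mean of at least 10 counts. The 11 at 0 included Aim2, a DNA sensor of the inflammasome, and 8 genes of the Ifi200 family (Ifi204, Ifi206, Ifi207, Ifi208, Ifi209, Ifi211, Ifi213 and Mndal). These 8 are related genes among which reads may be split, and their sequences were not compared here. The 3′ repair exonuclease gene Trex1 and the kinase gene Ikbke had no row in the tables used here.

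The genes of this list with the highest CPM included Samhd1, Prkdc and Rad50. Samhd1, which breaks down deoxynucleotides, had 35.9, 39.4 and 44.8 CPM and was lowest in library 1, as Irf9 was. Prkdc, the catalytic subunit of DNA-dependent protein kinase, had 72.5, 69.7 and 60.3 CPM, and Rad50, of the MRN complex, 41.0, 50.5 and 38.5. Enpp1, an ectoenzyme that degrades cGAMP, had 286, 254 and 65 counts, so library 3 was low, with 1.23 CPM against 5.45 and 4.75 in libraries 1 and 2. In the list, 10 of 16 genes (62.5%) were lower in library 3 than in both others, against 47.6% of the 9965 entries. Library 2 was the highest for 8 of the 16, against 37.6%, and library 1 the lowest for 5 (31.3%), close to the 29.9% of all entries. The median deviation of library 1 was −0.06, against 0.05 over all entries. Without library 2 it was 0.09, and the median over all entries was then also 0.09. The shares of this list were not tested.

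**Figure D3:**
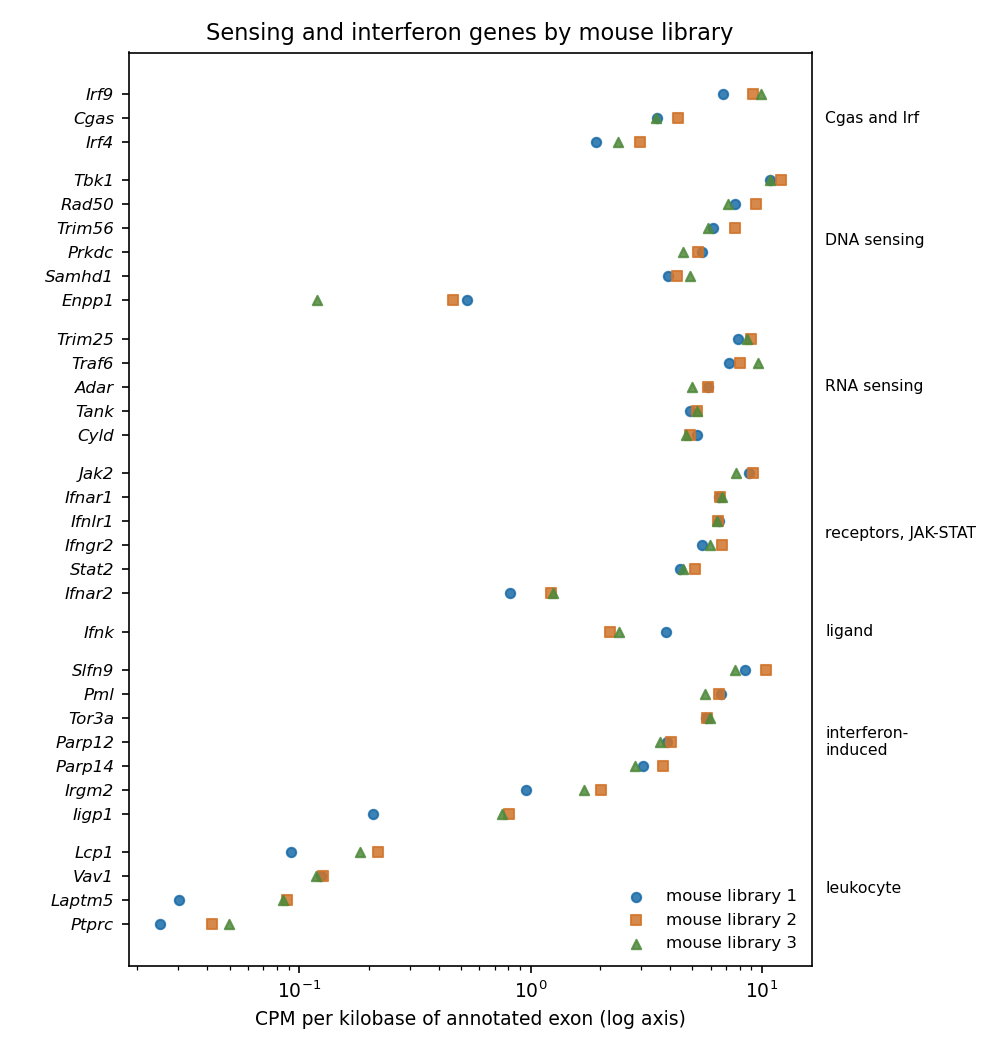
CPM per kilobase of annotated exon on a log axis for Irf9, Cgas and Irf4 and for genes of DNA sensing, RNA sensing, interferon receptors and JAK-STAT signalling, an interferon ligand, interferon-induced genes and leukocytes, each point being a mouse library. Irf9 (6.77 to 9.94) lies near Tbk1 (10.8 to 12.0), and the leukocyte genes lie below all others except Enpp1 and Iigp1, whose low libraries reach their range.

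The RNA sensing and Toll-like receptor branches, which reach the same IRF factors, had rows for most of their genes. Ddx58, which encodes RIG-I, and Myd88 had no row. Of 25 annotated genes of cytosolic RNA sensing, 21 had a row and 18 a mean of at least 10 counts. Cyld, a deubiquitinase, had 65.9, 61.6 and 59.3 CPM and Adar, the RNA-editing enzyme, 47.3, 47.4 and 40.6 CPM. Traf6, a signalling ligase, had 56.9, 63.2 and 75.4 CPM and was high in library 3, while Trim25, the ligase that acts on RIG-I, had 45.5, 51.3 and 49.5. Tank, a scaffold of TBK1, was nearly level at 29.8, 31.8 and 31.9 CPM. Traf3, which joins these receptors to TBK1, had 32.6, 33.8 and 22.3 CPM and was low in library 3. The interferon-induced synthetase genes Oas1a, with 46, 120 and 73 counts, and Oasl2, with 89, 208 and 99, were high in library 2; they belong to a family of close copies. The list had 9 of 18 genes lower in library 1 than in both others, against 29.9% of all entries, 10 (55.6%) higher in library 2, against 37.6%, and 6 (33.3%) lower in library 3, against 47.6%. Its median deviation in library 1 was −0.10, against 0.05 over all entries, and the shares of this list were not tested.

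Of 15 annotated genes from Toll-like receptors to IRF factors, 11 had a row and 7 a mean of at least 10 counts; Tlr4, Tlr8 and Tlr9 were at 0. Chuk, an IκB kinase, had 40.6, 39.6 and 36.9 CPM, the lysosomal transporter gene Slc15a4 38.4, 41.0 and 34.8, and the kinase gene Irak2 25.7, 30.3 and 33.6. Ticam1, the adaptor of TLR3, had 11.4, 13.8 and 13.9 CPM and Irak4, a kinase below MYD88, 11.0, 13.0 and 12.9, both lowest in library 1. Unc93b1, which carries Toll-like receptors to endosomes, had 1.92, 2.17 and 2.40 CPM. In this list 4 of 7 genes (57.1%) were lower in library 1 than in both others, against 29.9% of all entries, and 3 (42.9%) in library 3, against 47.6%. Its median deviation in library 1 was −0.23, against 0.05 over all entries; with 7 genes these shares cannot be set apart from the background.

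Of the interferon genes themselves, Ifnk alone had a mean of at least 10 counts. Ifnk, an interferon made by keratinocytes, had 162, 95 and 103 counts, or 3.09, 1.78 and 1.94 CPM and 3.83, 2.21 and 2.42 per kilobase. Library 1 was high for Ifnk, the reverse of Irf9 and Irf4. Of 21 annotated interferon genes 19 had a row and 16 were at 0 in each library, among them Ifnb1, Ifng and most Ifna genes, which are close copies of each other. Ifnz and Ifna13 had 8, 10 and 9 counts and 3, 0 and 5 counts.

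Of the receptor and kinase genes that lead to ISGF3, all with a row but Ifnar2 and Il10rb had a smaller ratio of the highest to the lowest library than Irf9. Of 24 annotated genes 9 had a row, each with a mean of at least 10 counts, and Jak1 and Tyk2 were not among them. Stat2, the partner of IRF9, had 26.3, 30.4 and 27.1 CPM, or 4.44, 5.12 and 4.57 per kilobase, so it was highest in library 2 and did not share the high value of Irf9 in library 3. Ifnar1, a chain of the type I receptor, had 38.7, 39.1 and 39.8 CPM, and Ifnlr1, of the type III receptor, 27.2, 27.1 and 26.7. Jak2 had 44.2, 46.2 and 38.8 CPM and Ifngr2, of the interferon gamma receptor, 20.8, 25.3 and 22.6. Ifnar2, the other type I chain, had 143, 218 and 221 counts, or 2.72, 4.08 and 4.17 CPM, and Il10rb, the shared chain of the type III receptor, 2.06, 3.09 and 3.55 CPM; both were low in library 1. Usp18, an interferon-induced inhibitor of the receptor, went the other way with 15.3, 13.2 and 11.8 CPM. The list had 5 of 9 genes (55.6%) lower in library 1 than in both others, against 29.9% of all entries, and 4 (44.4%) in library 3, against 47.6%. Its median deviation in library 1 was −0.03, against 0.05 over all entries. With 9 genes these shares cannot be set apart from the background.

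Among measured genes known to be induced through ISGF3 or interferon gamma, library 1 was the low library for a majority. Of 70 annotated genes 48 had a row, 34 had a mean of at least 10 counts and 6 were at 0. Of the 34, 21 (61.8%) were lower in library 1 than in both others, against 29.9% of all 9965 entries, and 19 (55.9%) were higher in library 2, against 37.6%. The median deviation of library 1 was −0.35, against 0.05 over all entries, and the 14 genes with a row that fell below the minimum or were at 0 are not in these counts. Across the other scalings 21 or 22 of the 34 were lowest in library 1, where the background was 33.1% to 35.5%. No test was made of this list. The summed markers of leukocytes, which also express many of these genes, were low in the same library (1.90, 4.17 and 3.40 CPM). Of 4 measured leukocyte markers 3 were lowest in library 1, against 29.9% of all entries. Of 5 measured T cell markers 3 were, and of 5 measured Langerhans and myeloid markers 1 was. Lyz2, at 0 in libraries 1 and 2, was not counted as lowest. Aif1, a myeloid marker with 23, 8 and 9 counts, and Trdc, with 28, 18 and 23, were highest in library 1. With so few markers these shares cannot be set apart from the background. Library 1 was also the library with counts of the Y-linked gene Ddx3y (3483, against 0 and 0 in libraries 2 and 3). Whether leukocytes or the difference marked by Ddx3y had a part in the low interferon-induced values was not tested.

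By the ratio of the highest to the lowest library, Iigp1, Irgm2 and Isg20 were the widest of these genes among those averaging 50 counts or more; Iigp1 and Irgm2 encode GTPases of cell-autonomous immunity. Iigp1 had 64, 251 and 231 counts in libraries 1, 2 and 3, or 1.22, 4.69 and 4.36 CPM, so library 1 was low. Irgm2 had 3.52, 7.44 and 6.25 CPM with the same pattern. Isg20, an exonuclease, had 3.87, 4.77 and 7.04 CPM and was high in library 3. The 5 genes of the list with the highest CPM had smaller ratios. Slfn9 had 50.3, 62.3 and 45.6 CPM, Parp14 28.5, 34.9 and 26.2, Pml, which forms nuclear bodies, 37.2, 36.2 and 31.7, Tor3a 22.2, 22.5 and 23.3 and Parp12 15.5, 16.2 and 14.4. The Irgm, Iigp and Slfn genes have close copies, so their counts are uncertain.

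**Figure D4:**
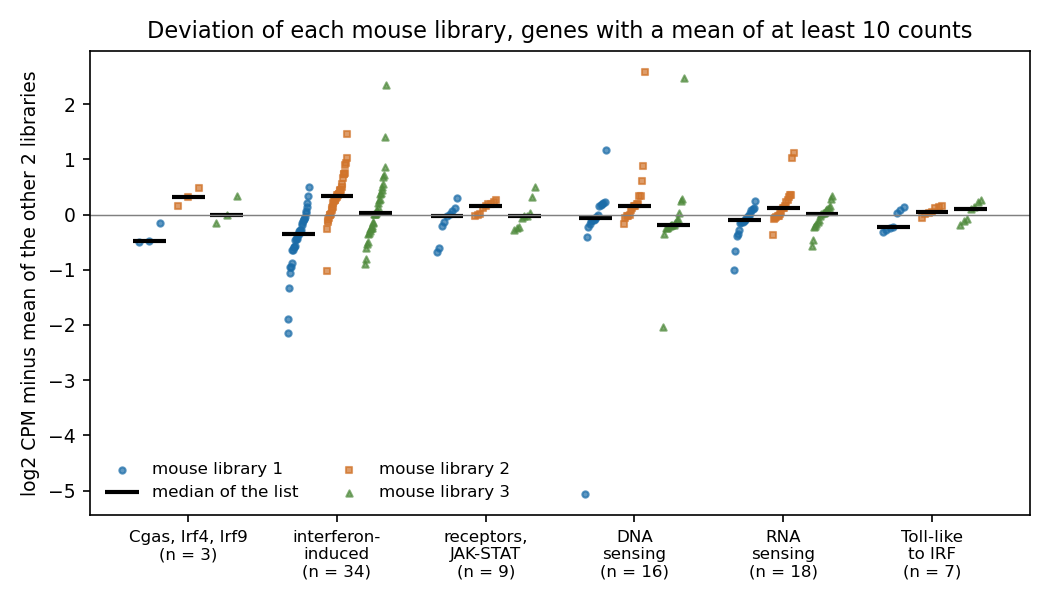
Deviation of each mouse library, on the log2 CPM scale, from the other 2 libraries' mean, for each gene with a mean of at least 10 counts in 6 lists; black bars are list medians and n is the number of genes. The interferon-induced genes have a median of −0.35 in library 1 and 0.33 in library 2, and the lowest point is Zbp1, with 0, 17 and 16 counts.

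Of the genes whose products pair with IRF4 and IRF8 on DNA, the rows present were low: Spi1 had 0, 10 and 19 counts, Spib 18, 29 and 19, and Batf3 3, 0 and 0. Batf, another such gene, had no row in the tables used here, so its level could not be read. Relb, an NF-κB subunit in the same list of partners, had 32.0, 29.3 and 24.1 CPM. Of 18 annotated partner genes 5 had a row. The named genes nearest to each of the 3 genes over the 3 libraries, by the root mean square difference of log2 CPM, were Plat, Mphosph8 and Zc3h3 for Cgas (0.05, 0.05 and 0.06), Tgfa, Trim21 and Etfrf1 for Irf4 (0.05, 0.10 and 0.10) and Fuca2, Arrb1 and Ccng2 for Irf9 (0.11, 0.12 and 0.16). Trim21, an antibody receptor and ubiquitin ligase, is also in the interferon-induced list and had 10.3, 14.5 and 11.0 CPM. Among the 9965 entries, 237 lay within 0.2 of Cgas, 53 of Irf4 and 14 of Irf9.

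Endothelial markers, whose cells also carry CD49f, summed to 2.65, 2.23 and 1.40 CPM over 6 rows, with Flt1 at 129, 105 and 63 counts, Pecam1 at 10, 14 and 11, and Kdr, Cdh5, Tie1 and Emcn at 0. Fibroblast markers summed to 0.495, 0.673 and 0.661 CPM over 4 rows, with Dcn at 26, 31 and 29 counts and Pdgfrb and Lum at 0. Among keratinocyte markers Itga2 had 53.5, 49.1 and 42.4 CPM, Tgm3, a transglutaminase, 18.8, 12.6 and 11.4, and Dsc2, a desmosomal cadherin, 7.01, 7.07 and 8.76. Itga2 and Tgm3 were thus highest in library 1, as were 3786 of the 9965 entries averaging 10 counts or more, while Dsc2 was lowest there.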

How the data were processed

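The authors deposited a table per library with a raw count for each Ensembl gene or assembled locus, per the labels. Libraries were ribosome-depleted and directional, per the labels' protocols. The submitters' processing notes list cutadapt, FastQC, Bowtie2, TopHat2 and mm10; the counting program and its use of strand are not given in the labels. Entries at a count of 1 (641) were outnumbered by those at 2 (829) in library 1, so counts may come from estimated coverage and the intervals are approximate. The deposited counts were divided by the library total to give CPM, and by GENCODE vM21 exon length. Of 42675 mouse Ensembl rows 42321 had a symbol of their own; genes counted in lists needed a mean of at least 10 counts. No test was run, since the mouse libraries form 1 group. The members and lists were chosen with earlier results of these data known. Genes were named by rule: all members, the 5 highest by mean CPM and the 3 widest between libraries (mean of at least 50 counts) per pathway list, the 4 highest and those at 0 per marker list, and 3 nearest genes; other genes were added after their values were seen. Scaling factors came from edgeR 4.0.16 (TMM) and DESeq2 1.42.0 in R 4.3.3; intervals came from scipy 1.17.1, tables from pandas 2.3.3 and numpy 2.4.6, and figures from matplotlib 3.10.9 under Python 3.11.15. The calculation of deviations was tested on simulated data. Symbols absent from vM21 (Sting1, Mre11, Rigi and Tasl) were left out; Sting1 and Mre11 are there as Tmem173 and Mre11a. Some items are not reported here.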

Additional observations from a re-analysis of the deposited data

How the results depend on the processing

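Of 130 alternative values for 21 results, 115 stayed in direction and within the spread of the result, or within 1.5 times for counts and shares. The spread is the SD over libraries for levels, over list medians for deviations and over the values without each library for the coefficients of variation. Leaving out a library cannot move a mean level of 3 libraries by their SD, so those values stayed by construction and carry no information on robustness. Over Ensembl rows alone CPM was 416 for Irf9, 139 for Cgas and 106 for Irf4, as the smaller total gives by construction, and the median deviation of library 1 over all entries was −0.0022. Among entries averaging 50 counts or more the coefficient of variation stood at percentile 78.5 for Irf4, 73.3 for Irf9 and 56.0 for Cgas, against 60.8, 55.6 and 41.0 with a minimum of 10. Length by the longest coding transcript, chosen after seeing the data, gave Irf9 15.7 CPM per kilobase. Leaving out each library gave 42.7 to 51.3 CPM for Irf9, 14.4 to 16.2 for Cgas and 10.5 to 13.1 for Irf4. The coefficients of variation then ran from 6.28% to 26.9% for Irf9, from 0.168% to 15.4% for Cgas and from 15.5% to 30.8% for Irf4, and their percentiles, with a minimum of 10, from 26.8 to 69.9, from 0.442 to 59.0 and from 52.4 to 79.5. The share of entries lower in library 1 ran from 40.0% without library 2 to 51.8% without library 3, when 1 other library remained for comparison. The median deviation of library 1 then ran from −0.12 to 0.090 for DNA sensing, with 0.090 without library 2, and over all entries from −0.015 without library 3 to 0.094 without library 2. For interferon-induced genes it stayed between −0.46 and −0.25. No paired analysis was possible because the result comes from no test and the mouse libraries form 1 group. Depth limits the genes with few counts, such as Zbp1 and the leukocyte markers.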
